A study of Mus musculus with 19 samples.

Results

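Left ventricular RNA from mice with pressure overload was examined for 36 genes of macrophages, monocytes, other leukocytes, antigen presentation and chemokines. The genes were taken as a named list, chosen with earlier results of these data known. Each is represented by its brightest probe set (by the mean of the 19 arrays) among those annotated to exactly 1 gene symbol. All 36 passed a filter on low values (log2 signal above 4 on at least 5 arrays) and so are 36 of the 10733 genes tested. On every array 34 of them were above log2 4. The exceptions were Itgam, above it on 7 of 19 arrays, and Ccr2, above it on 16 of 19. The list held 9 genes of resident macrophages (Csf1r, Cd68, Cd163, Mrc1, Lyve1, Cx3cr1, F13a1, Mpeg1, Aif1) and 10 of monocytes and other myeloid cells (Ccr2, Cd14, Itgam, Itgb2, Lyz2, Fcgr3, Fcer1g, Tyrobp, Cybb, Ly86). It also held 6 genes of leukocytes in general (Ptprc, Cd48, Cd52, Cd53, Coro1a, Laptm5), 5 of antigen presentation (Cd74, H2-Aa, H2-Ab1, H2-Eb1, Ctss) and 6 chemokines (Ccl2, Ccl6, Ccl8, Ccl9, Cxcl12, Cx3cl1).

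The mice were C57BL/6 males operated on at 7 weeks of age, and the left ventricle was taken 4 weeks later. Each animal gave 1 array, and the labels list organ weights and tibia length for each. Sham-operated mice numbered 5. Of the mice with a band on the aorta, 7 had no heart failure and 7 had heart failure, by a criterion that the labels do not state. No transgene or drug is named for any group. The lung index in the labels was 8.59 ± 0.49 in sham mice (SD, n = 5), 9.10 ± 0.80 in banded mice without heart failure (SD, n = 7) and 20.4 ± 2.2 in those with it (SD, n = 7).

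A healthy mouse ventricle holds a standing population of macrophages, many of which lie along vessels and between myocytes and carry scavenger receptors such as CD163, the mannose receptor and LYVE1. Monocytes that express CCR2 are drawn in from blood by chemokines such as CCL2 after injury. Fractalkine, the product of Cx3cl1, is made by endothelial and other non-leukocyte cells and binds CX3CR1, a receptor of monocytes and macrophages, while MHC class II molecules display peptides to CD4 T cells.

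The arrays carried the transcripts of whole ventricle, so for each gene below fewer cells of a type and less RNA per cell cannot be told apart. The mean over 10 cardiomyocyte markers was 15.34, 15.34 and 15.29 in sham, banded without and banded with heart failure. Of 17 T, B and NK cell markers, 14 were on the array and 1 passed the filter, and of 12 neutrophil and mast cell markers 10 were on the array and 3 passed it (S100a8, S100a9 and Kit), none of which passed limma's test in any of the 3 comparisons. A control for 18S ribosomal RNA was bright on 6 arrays, those of sham mice 1 to 3 and of banded mice 5 to 7 without heart failure (9.03 to 11.76). It was dim on the other 13 (5.14 to 7.62), which include every array of heart failure. The 3′ to 5′ difference of the actin control, a measure of RNA integrity and labelling, was 0.943 to 1.02 in sham mice and 0.661 to 0.905 in banded mice, without overlap. Animal numbers formed 3 series, and each held mice of all 3 groups.

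One sham mouse stood apart in these genes. Sham mouse 3 had the highest signal of all 19 mice in 30 of the 36, while 7.58% of all 10733 genes were highest in it. It exceeded the mean of the other 4 sham mice by a median of 1.15 over the 36 genes, against 0.03 over all genes. Banded mouse 5 with heart failure had the highest signal of 19 in 3 of the 36 genes (Cd14, Itgam and Cybb), while 12.3% of all genes were highest in it. It had the lowest signal in 8 of the 36, and the share of all genes lowest in this mouse was not counted. Its S100a8 signal, a neutrophil transcript chosen after its values were seen, was 11.77, against 4.87 to 6.13 in the other 6 mice with heart failure and 9.63 in sham mouse 3. The mean of the 3 neutrophil and mast cell markers was 8.57 in that mouse, 8.10 in sham mouse 3 and 4.88 to 6.66 in the other 17 mice. Values without sham mouse 3 are therefore given beside those of all mice for the genes that passed and for the others whose change it moved most. That mouse was picked by the values of these same genes, and leaving it out lowers the sham mean in 35 of the 36. A call gained or an adjusted p lowered without it is therefore not independent support. The part of these mice, of the 18S signal and of the actin difference in each result was not tested beyond the values given.

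**Figure D1:**
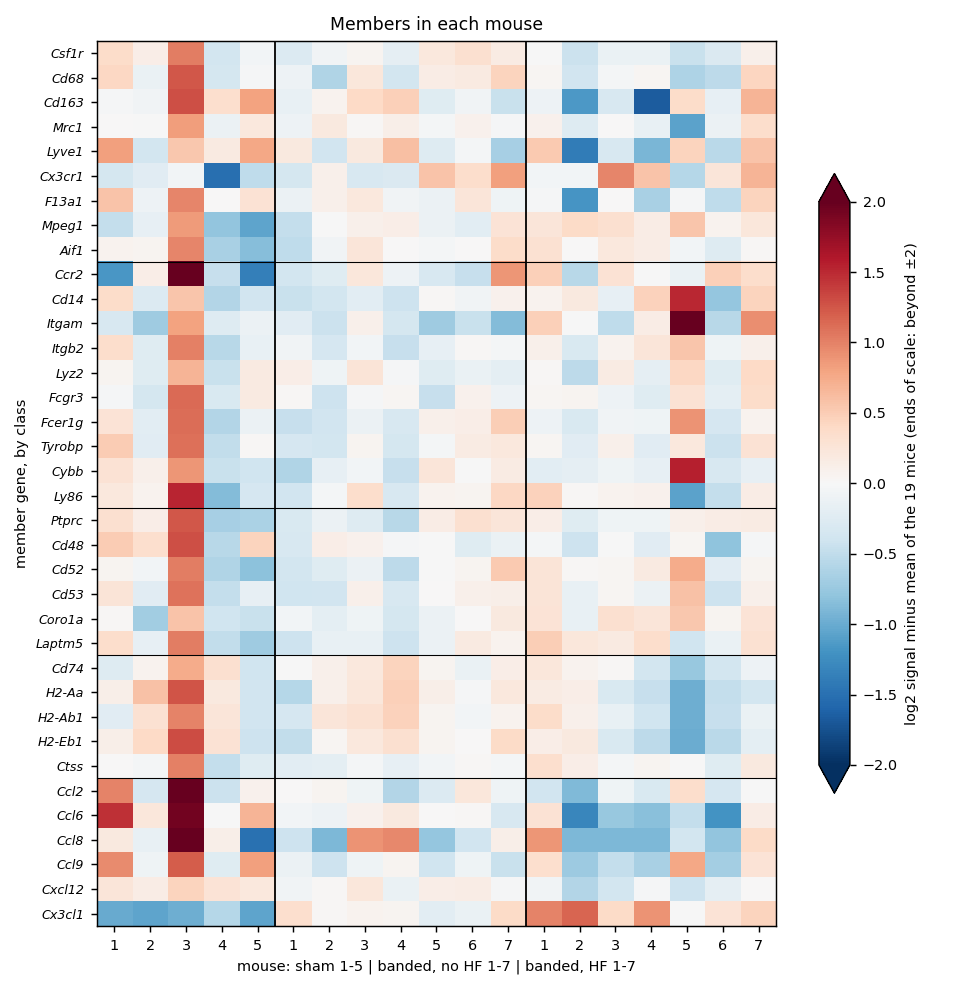
Log2 signal of each of the 36 genes (rows, by class) in each of the 19 mice (columns, by group), as the difference from the gene's mean over all mice; colours end at 2 on either side. Sham mouse 3 is high in nearly every row, banded mouse 5 with heart failure is high in Cd14, Itgam and Cybb and low in Mrc1 and the class II genes, and Cx3cl1 is low in all 5 sham mice.

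Between banded mice with heart failure and sham mice, 9 of the 36 genes passed the test (limma, Benjamini-Hochberg adjusted p under 0.05 over all genes). That is 25%, below the 39.3% of all tested genes that passed. Cx3cl1, Cx3cr1 and Mpeg1 rose, 3 of 36 where 20.4% of all genes rose, and Ccl6, Cxcl12, H2-Aa, H2-Eb1, F13a1 and Cd48 fell, 6 of 36 where 18.9% of all genes fell. The median change of the 36 genes was -0.15 on the log2 scale and that of all genes 0.01, with 24 of the 36 lower. Without sham mouse 3 the median was 0.12, 16 were lower, and 7 genes passed: Cx3cr1, Mpeg1, Ccr2, Coro1a and Cx3cl1 higher, Ccl6 and Cxcl12 lower. That is 19.4% of the 36, where 35.2% of all genes passed. Without sham mouse 4, the lowest of its group in 18 of the 36 genes, 10 passed, 1 higher and 9 lower (27.8%, against 40.9% of all genes). With the values quantile-normalized again 10 passed (27.8%, against 40.8% of all genes), 1 higher and 9 lower. With the animal number series as a block 8 passed (22.2%, against 40.7% of all genes). H2-Aa, H2-Eb1 and Cd48 were lost (limma adjusted p = 0.0564, 0.0664 and 0.0606), and Cd163 and Ccl9 were gained, at -0.96 and -0.72 (limma adjusted p = 0.0216 and 0.0430).

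In banded mice without heart failure against sham, 1 of the 36 genes passed, Cx3cl1, which was higher, where 17.4% of all genes passed and 10.8% rose. The other 35 did not pass, and 29 of the 36 had a lower mean than sham, with a median change of -0.20 beside 0.02 over all genes. Without sham mouse 3 the median was 0.02 and 14 of 36 were lower. Between the banded groups, 1 of the 36 passed, again Cx3cl1, higher with heart failure, where 9.48% of all genes passed and 3.83% rose. The 3 comparisons share their groups, so their values are not independent of each other.

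**Figure D2:**
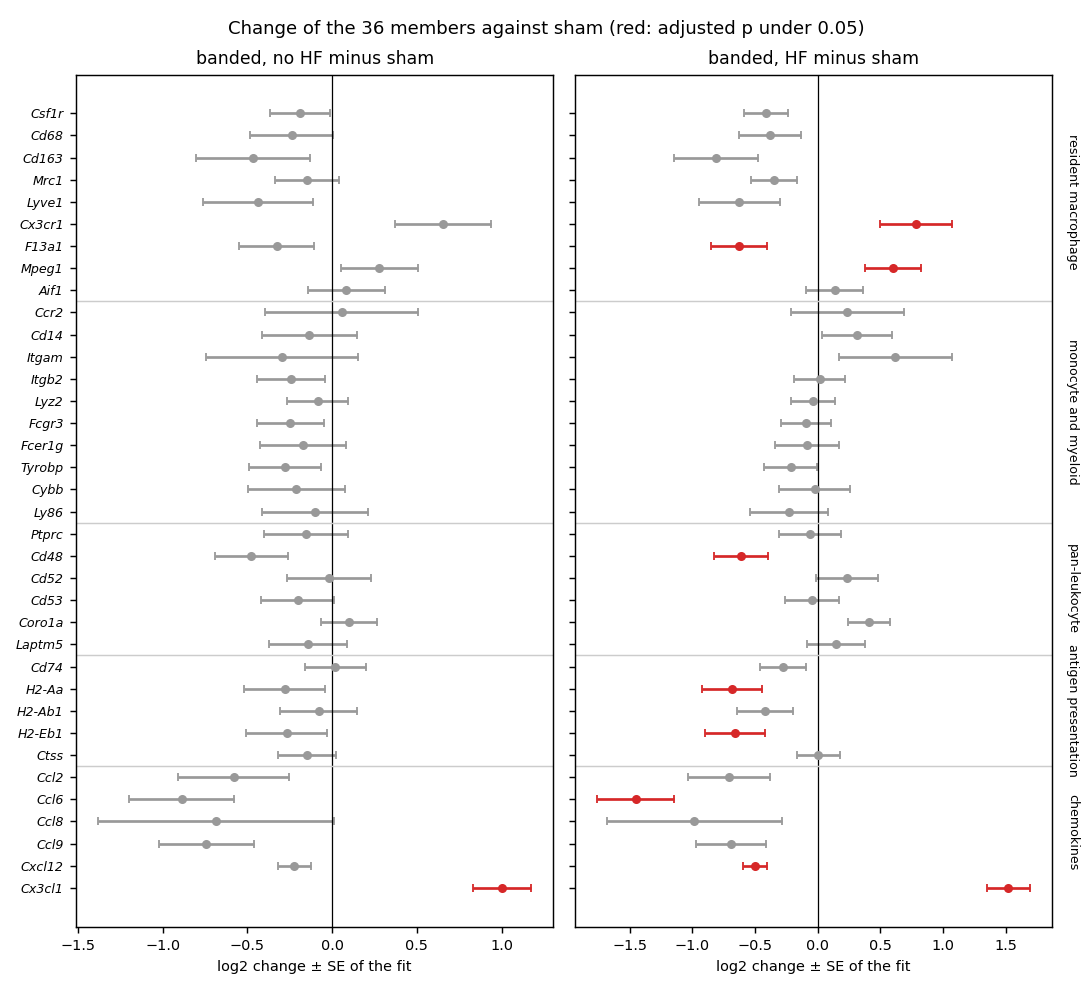
Log2 change of the 36 genes against 5 sham mice, with the standard error of the fit, for 7 banded mice without (left) and 7 with heart failure (right); red marks an adjusted p under 0.05. On the left 1 gene is red (Cx3cl1), on the right 9, with Ccl6 lowest at -1.45 and Cx3cl1 highest at 1.52.

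In heart failure 1 of the 6 chemokines rose (Cx3cl1) and 2 fell (Ccl6, Cxcl12), while Ccl2, Ccl8 and Ccl9 had lower means and did not pass. The genes called were 50% of the 6, beside 39.3% of all genes (20.4% rose and 18.9% fell). The median change of the 6 was -0.70, and -0.38 without sham mouse 3. Cx3cl1 was also the gene of the 36 with the largest change and the one that passed in all 3 comparisons.

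The log2 signal of Cx3cl1, the membrane-bound chemokine fractalkine, was 6.71, 6.66, 6.74, 7.15 and 6.66 in sham mice 1 to 5. It ran from 7.50 to 8.10 with a median of 7.77 in the 7 banded mice without heart failure, and from 7.71 to 8.87 with a median of 8.16 in the 7 with it. All 14 banded mice were thus above every sham mouse, and the banded groups overlapped each other, with 4 of 7 mice with heart failure above all mice without. The change against sham was 1.0 ± 0.17 (SE, 2.0-fold) without heart failure (limma adjusted p = 0.000712) and 1.52 ± 0.17 (2.87-fold) with it (limma adjusted p = 2.3e-06). Without sham mouse 3 these changes were 0.99 and 1.51. Between the banded groups the change was 0.52 ± 0.16 (limma adjusted p = 0.0457), and it passed in 12 of 26 other ways of processing. That call was lost when banded mouse 1, 2, 4 or 7 with heart failure or banded mouse 2, 3, 4, 5 or 6 without it was left out, with changes of 0.42 to 0.54 and a limma adjusted p up to 0.107. A dimmer probe set of Cx3cl1 had means of 4.93, 5.48 and 5.70 in sham, banded without and banded with heart failure, the same order.

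Within each of the 3 animal number series, the mean of Cx3cl1 was higher in banded mice with heart failure than in sham mice. The differences were 2.08 (2 mice against 3 sham mice), 1.21 (2 against 1) and 1.29 (3 against 1), so series 2 and 3 rest on 1 sham mouse each. Between the banded groups the differences in these series were 1.06, 0.60 and 0.05. In series 1 the arrays of heart failure were all of low 18S signal and those of the other groups all of high, so the 2 cannot be told apart there. Among the arrays of low 18S signal, which hold 2 sham mice, Cx3cl1 was higher with heart failure than in sham by 1.40 (limma adjusted p = 0.00244). In the same arrays the change without heart failure was 0.93, with a limma adjusted p of 0.0962.

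The 150 bases before the RefSeq start of Cx3cl1 (GRCm38.p6, chr8:94772030-94772179, plus strand) are shown because this gene carried the largest change of the list. Capitals mark TATAAA, the TATA box letters, which were searched on both strands and end at the start here. The window is 68% G and C, and TATAAA occurs in 8.08% of 27025 mouse promoter windows of the same length.
Cx3cl1: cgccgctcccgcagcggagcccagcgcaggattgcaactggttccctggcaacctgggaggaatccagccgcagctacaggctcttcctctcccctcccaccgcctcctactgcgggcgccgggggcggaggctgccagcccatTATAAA

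Ccl6, a chemokine of the CC family made by macrophages and other myeloid cells, was 10.46, 9.23, 10.93, 9.0 and 9.68 in sham mice 1 to 5. Its signal ran from 8.68 to 9.19 (median 9.0) in banded mice without and from 7.69 to 9.29 (median 8.23) in banded mice with heart failure. In heart failure 5 of 7 mice lay below all sham mice, and 2 lay within the sham range. The change was -1.45 ± 0.31 in heart failure (2.74-fold lower, limma adjusted p = 0.00114) and -0.89 ± 0.31 without it (limma adjusted p = 0.0549); the latter passed without sham mouse 2 or 4, at -1.04 and -1.10, and also with the mean of the probe sets and with quantile normalization, and was -0.62 without sham mouse 3 and -0.31 among low 18S arrays. Without sham mouse 3 the former was -1.18 (limma adjusted p = 0.00405), and among low 18S arrays it was -0.93 and did not pass (limma adjusted p = 0.0849). The second probe set of Ccl6 had means of 7.79, 6.69 and 6.28, in the same order of groups, and its change without heart failure was -1.10 (limma p adjusted over all probe sets = 0.0256).

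Cxcl12, which encodes SDF-1, a chemokine of stromal and endothelial cells, was 11.49, 11.40, 11.69, 11.51 and 11.46 in sham mice. It ran from 11.11 to 11.46 (median 11.27) in banded mice without heart failure and from 10.65 to 11.25 (median 11.06) in those with it. All 7 mice with heart failure lay below all 5 sham mice. The fall was small in size, at -0.50 ± 0.10 (1.41-fold, limma adjusted p = 0.000534), and was -0.45 without sham mouse 3. Between the banded groups it was -0.28 ± 0.09 (limma adjusted p = 0.0557), and passed without banded mouse 4 or 7 with or mouse 4 without heart failure, at -0.32 to -0.31. It passed in 7 of 26 other ways of processing, also with quantile normalization, equal medians, the actin difference as a covariate or an intensity trend. Of the other probe sets of Cxcl12, the dimmest was also lower in heart failure, with means of 5.11 in sham and 4.81, and did not pass, while the remaining one had means of 8.80 and 8.84. With the mean of the probe sets the change was -0.25 and did not pass (limma adjusted p = 0.114).

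Ccl9, a CC chemokine of myeloid cells, changed by -0.69 ± 0.28 in heart failure (limma adjusted p = 0.0569) and by -0.74 ± 0.28 without it (limma adjusted p = 0.0737). In heart failure it passed, at -0.89 to -0.76, without sham mouse 2 or 4 or banded mouse 1, 5 or 7, and without heart failure it passed without sham mouse 4, at -0.94. Its change in heart failure was -0.52 without sham mouse 3. Ccl2, the ligand of CCR2, changed by -0.71 ± 0.33 in heart failure (limma adjusted p = 0.0927) and by -0.31 without sham mouse 3; it passed without sham mouse 2 or 4, at -0.91 and -0.94. Ccl8, another CC chemokine, was 10.23 in sham mouse 3 and 4.34 to 6.03 in the other 4 sham mice. Its change of -0.98 ± 0.70 in heart failure (limma adjusted p = 0.277) became -0.04 without that mouse.

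**Figure D3:**
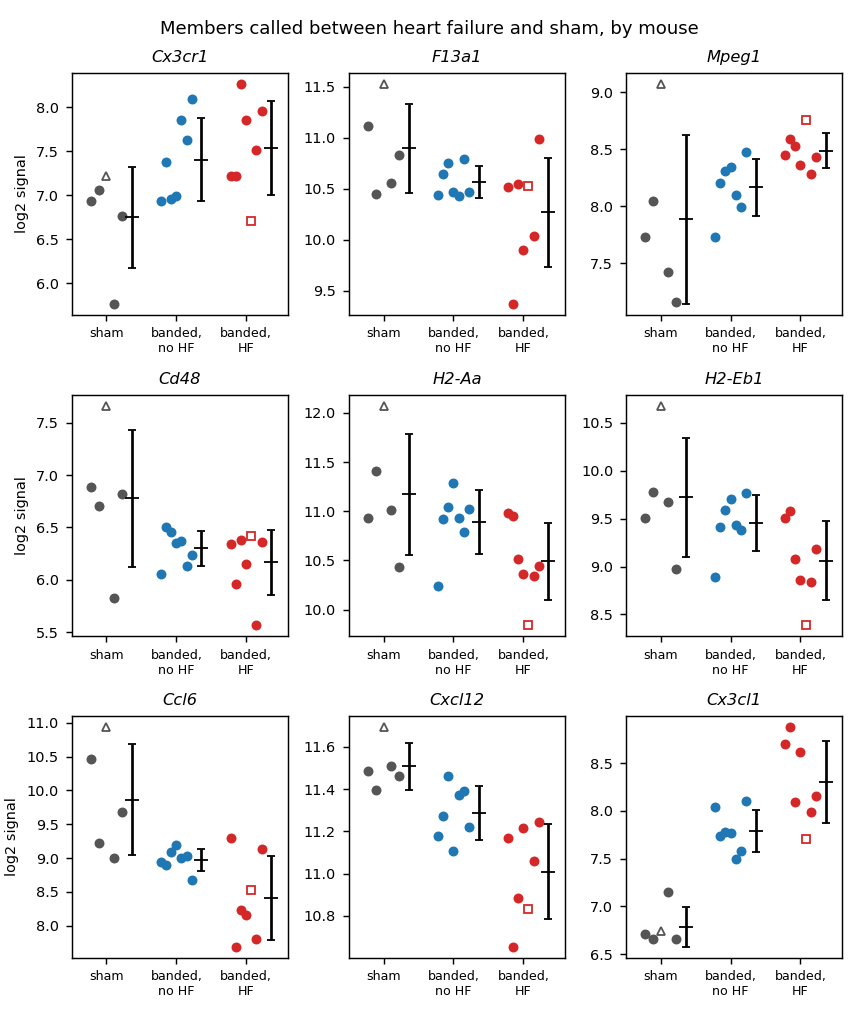
Log2 signal by mouse of the 9 genes that passed between heart failure and sham; points are mice (5 sham, 7 banded without and 7 banded with heart failure), bars show mean and SD, the open triangle is sham mouse 3 and the open square banded mouse 5 with heart failure. The sham and heart failure points are apart in Cx3cl1 and Cxcl12 and overlap in the other 7 panels.

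In the antigen presentation class 2 MHC class II genes fell in heart failure, H2-Aa, the alpha chain of I-A, and H2-Eb1, the beta chain of I-E. H2-Ab1, Cd74 and Ctss did not pass. The genes called were 40% of the 5, beside 39.3% of all genes that passed and 18.9% that fell. The median change of the 5 genes was -0.42, and -0.22 without sham mouse 3, and no gene of the class passed in the other comparisons.

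H2-Aa was 10.93, 11.41, 12.07, 11.01 and 10.43 in sham mice 1 to 5. It ran from 10.24 to 11.29 (median 10.94) in banded mice without and from 9.84 to 10.98 (median 10.44) in banded mice with heart failure, where the lowest was mouse 5. The ranges of sham and heart failure overlapped, and 3 of 7 mice with heart failure were below all sham mice. The change was -0.68 ± 0.24 (1.60-fold lower, limma adjusted p = 0.0301), -0.46 without sham mouse 3 (limma adjusted p = 0.110) and -0.09 with the actin difference as a covariate. The call was lost also without sham mouse 2 or banded mouse 5 with heart failure, at -0.62 and -0.57. All 4 probe sets of H2-Aa had lower means in heart failure than in sham.

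H2-Eb1 was 9.51, 9.78, 10.68, 9.68 and 8.97 in sham mice. It ran from 8.89 to 9.77 (median 9.43) without and from 8.39 to 9.58 (median 9.08) with heart failure, with mouse 5 again lowest and the ranges overlapping. The change was -0.66 ± 0.24 (limma adjusted p = 0.0352) and -0.42 without sham mouse 3 (limma adjusted p = 0.128). It was lost also without sham mouse 2 or without banded mouse 4, 5 or 6 with heart failure, at -0.65 to -0.55. H2-Ab1, the beta chain of I-A, changed by -0.42 ± 0.23 (limma adjusted p = 0.147), and Cd74, the invariant chain that escorts class II molecules, by -0.28 ± 0.18 (limma adjusted p = 0.238). Both were smaller without sham mouse 3, at -0.22 and -0.12. Ctss, the protease cathepsin S that trims the invariant chain, differed by 0.01 ± 0.17 (limma adjusted p = 0.985), and by 0.25 without sham mouse 3.

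Promoter windows of the 2 class II genes that passed are shown because genes of this family share conserved X and Y boxes. The windows are the 150 bases before the RefSeq start in GRCm38.p6: chr17:34287824-34287973 on the minus strand for H2-Aa and chr17:34305717-34305866 on the plus strand for H2-Eb1. Capitals mark CTGATTGG, letters of the Y box, and GCAAC, the core of the X box, both searched on both strands; these letters were chosen with the sequences in view, and the 2 motifs do not overlap.
H2-Aa: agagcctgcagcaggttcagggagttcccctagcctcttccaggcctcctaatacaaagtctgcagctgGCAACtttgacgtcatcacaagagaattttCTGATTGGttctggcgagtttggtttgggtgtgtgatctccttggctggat
H2-Eb1: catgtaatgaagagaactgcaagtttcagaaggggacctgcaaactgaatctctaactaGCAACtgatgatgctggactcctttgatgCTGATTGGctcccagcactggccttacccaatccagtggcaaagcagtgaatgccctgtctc

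The Y box letters began 51 bases before the start in H2-Aa and 62 in H2-Eb1, and the X box core 81 and 91 bases before it. CTGATTGG occurs in 3.40% and GCAAC in 19.8% of 27025 promoter windows of this length. Of the 27 genes of the list with a promoter window, these 2 held CTGATTGG within 250 bases before the start. That is a longer window, in which 4.07% of the 27025 promoters hold it. No window was available for H2-Ab1 or Cd74, so these were not examined. Because the letters were chosen with the 2 printed sequences in view, finding them there is not a test. The Cx3cl1 window printed above holds GCAAC as well, 117 and 102 bases before the start, in lower case there.

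The 9 genes listed under resident macrophages did not all move in the same direction. In heart failure 6 had lower means than in sham and 3 (Cx3cr1, Mpeg1 and Aif1) had higher means. In heart failure Cx3cr1 and Mpeg1 rose, F13a1 fell, and Csf1r, Cd68, Cd163, Mrc1, Lyve1 and Aif1 did not pass. The genes called were 33.3% of the 9, beside 39.3% of all genes. The median of the 9 was -0.38, and -0.19 without sham mouse 3. No gene of the class passed in the other 2 comparisons over all mice with group as the term. Averaged per mouse over the class, the signal lay between 8.27 and 9.49 in sham mice, and the banded groups overlapped it, with 8.43 to 8.76 for mice without and 8.14 to 9.02 for mice with heart failure.

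Cx3cr1, the fractalkine receptor, was 6.93, 7.06, 7.22, 5.77 and 6.77 in sham mice. It ran from 6.93 to 8.10 (median 7.37) in banded mice without and from 6.70 to 8.26 (median 7.52) in banded mice with heart failure, where the lowest was mouse 5. In each banded group 4 of 7 mice were above all sham mice. The change was 0.79 ± 0.28 in heart failure (1.72-fold, limma adjusted p = 0.0351) and 0.65 ± 0.28 without it (limma adjusted p = 0.121). The latter passed with the 18S set as a block, at 0.79 (limma adjusted p = 0.0188), and with the actin difference as a covariate, at 1.30 (limma adjusted p = 0.0254). Sham mouse 4 was lowest of all 19, and without it the change in heart failure was 0.54 (limma adjusted p = 0.115). The call was lost also without sham mouse 5 or banded mouse 3, 4 or 7 with heart failure, at 0.66 to 0.79. Without sham mouse 3 the change in heart failure was 0.90 (limma adjusted p = 0.0272).

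Mpeg1, which encodes the pore-forming protein perforin-2 of macrophages, was 7.73, 8.05, 9.07, 7.43 and 7.16 in sham mice. It ran from 7.73 to 8.48 (median 8.20) without and from 8.29 to 8.76 (median 8.45) with heart failure. Every mouse with heart failure was above sham mice 1, 2, 4 and 5 and below sham mouse 3. The change was 0.60 ± 0.23 (limma adjusted p = 0.0416) and 0.90 without sham mouse 3 (limma adjusted p = 0.000207). Leaving out any 1 of the other 4 sham mice, or banded mouse 1, 2, 3, 4, 5 or 7 with heart failure, lost the call, at 0.42 to 0.64 and a limma adjusted p of 0.0506 to 0.135. Without sham mouse 3 Mpeg1 passed also in banded mice without heart failure, at 0.57 (limma adjusted p = 0.0170), and did so among the low 18S arrays, at 0.85 (limma adjusted p = 0.0194).

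F13a1, the A subunit of coagulation factor XIII, which cardiac resident macrophages express, was 11.12, 10.45, 11.53, 10.56 and 10.83 in sham mice. It ran from 10.43 to 10.79 (median 10.47) without and from 9.37 to 10.99 (median 10.52) with heart failure, and 3 of 7 mice with heart failure were below all sham mice. The change was -0.63 ± 0.22 (limma adjusted p = 0.0317) and -0.47 without sham mouse 3 (limma adjusted p = 0.108). It was lost also without sham mouse 1 or banded mouse 2, 4 or 6 with heart failure, at -0.59 to -0.48.

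Of the 6 that did not pass, Cd163, the scavenger receptor for haemoglobin and haptoglobin, changed by -0.81 ± 0.33 (limma adjusted p = 0.0627) and passed without banded mouse 5 or 7 with heart failure, at -0.93 and -0.98. Csf1r, the receptor for the macrophage growth factor CSF1, changed by -0.41 ± 0.18 (limma adjusted p = 0.0714) and passed without sham mouse 4, at -0.56, while it was -0.21 without sham mouse 3 and 0.02 among low 18S arrays. Lyve1, a hyaluronan receptor shared with lymphatic endothelium, changed by -0.62 ± 0.32 (limma adjusted p = 0.135), and Mrc1, the mannose receptor, by -0.35 ± 0.19 (limma adjusted p = 0.148). A dimmer probe set of Lyve1 changed by -0.90 (limma p adjusted over all probe sets = 0.0657). With the actin difference as a covariate Lyve1 passed (limma adjusted p = 0.0322). The lysosomal Cd68 and the actin-binding Aif1 changed by -0.38 ± 0.25 and 0.14 ± 0.23. The changes of Cd163, Lyve1, Mrc1, Cd68 and Aif1 without sham mouse 3 were -0.60, -0.59, -0.19, -0.13 and 0.40. Cd163 spread more in heart failure, from 6.77 in mouse 4 to 9.12 in mouse 7, than in banded mice without it, where it ran from 7.99 to 8.91; the difference in spread was not tested.

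By its brightest probe set, no gene of the monocyte and myeloid class passed in any comparison by limma, and at an unadjusted p under 0.05 there were 0 without heart failure against sham, 0 with heart failure against sham and 1, Itgam, between the banded groups. Of all genes 17.4%, 39.3% and 9.48% passed at the adjusted threshold in these comparisons, in that order. Changes in heart failure ran from -0.23 to 0.62 with a median of -0.03. Ccr2, the receptor for CCL2 on inflammatory monocytes, was 3.30, 4.61, 6.79, 4.01 and 3.10 in sham mice and 3.91 to 4.95 (median 4.76) in heart failure. Its change was 0.23 ± 0.45 (limma adjusted p = 0.712), and 0.84 without sham mouse 3 (limma adjusted p = 0.0295).

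Itgam, the CD11b chain of the Mac-1 integrin, changed by 0.62 ± 0.45 in heart failure (limma adjusted p = 0.287), with 7.12 in mouse 5 and 3.55 to 5.03 in the other 6 mice. Cd14, the lipopolysaccharide co-receptor, changed by 0.31 ± 0.28 (limma adjusted p = 0.394). Lyz2, lysozyme M, Tyrobp, the DAP12 adaptor, Fcer1g, the Fc receptor gamma chain, and Itgb2, the CD18 chain, changed by -0.04, -0.22, -0.09 and 0.02. Fcgr3, an Fc receptor for IgG, Cybb, the NADPH oxidase subunit, and Ly86, the MD-1 protein, changed by -0.09, -0.02 and -0.23. The other probe sets of Cybb gave other values: one had means of 5.28 in sham and 6.02 in heart failure, a change of 0.73 (limma p adjusted over all probe sets = 0.0316), and the other a change of 0.39, which did not pass. In all 10 genes the mean of heart failure was above sham once sham mouse 3 was left out, with a median change of 0.17 and 1 call, Ccr2.

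Of the 6 leukocyte genes, Cd48, a ligand of the receptor CD244, fell in heart failure and the other 5 did not pass by their brightest probe sets. That is 16.7% of the 6, beside 39.3% of all genes that passed and 18.9% that fell. Cd48 was 6.89, 6.71, 7.66, 5.82 and 6.82 in sham mice. It ran from 6.06 to 6.50 (median 6.35) without and from 5.57 to 6.42 (median 6.34) with heart failure. Sham mouse 4 lay below all but 1 of the banded mice, and the other 4 sham mice lay above them all. The change was -0.61 ± 0.22 (limma adjusted p = 0.0304) and -0.39 without sham mouse 3 (limma adjusted p = 0.110). It was lost also without sham mouse 1 or 5 or banded mouse 2 or 6 with heart failure, at -0.60 to -0.51. Without sham mouse 4 Cd48 passed also in banded mice without heart failure, at -0.72 (limma adjusted p = 0.00842).

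Coro1a, the leukocyte actin regulator coronin 1A, changed by 0.41 ± 0.17 in heart failure (limma adjusted p = 0.0563), and by 0.60 without sham mouse 3 (limma adjusted p = 0.00175) and 0.47 without banded mouse 2 with heart failure (limma adjusted p = 0.0347). Ptprc, the pan-leukocyte phosphatase CD45, changed by -0.06 ± 0.25 (limma adjusted p = 0.876). Among the low 18S arrays alone the direction for Ptprc turned, to 0.67 (limma adjusted p = 0.00234). Cd52 and Cd53, surface proteins of lymphoid and myeloid cells, changed by 0.23 ± 0.25 and -0.05 ± 0.22. Leaving out sham mouse 3 gave 0.23 for Ptprc, 0.51 for Cd52, 0.20 for Cd53 and 0.40 for Laptm5, none past the threshold.

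Laptm5, a lysosomal membrane protein of leukocytes, gave different answers by probe set. The brightest had means of 9.78, 9.64 and 9.93 in sham, banded without and banded with heart failure. The others past the filter had 5.76, 6.36 and 7.07, and 6.56, 7.01 and 7.16, in that order. Their changes in heart failure against sham were 1.31 and 0.60 (limma p adjusted over all probe sets = 0.00185 and 0.0253). The change by the brightest was 0.15 ± 0.23 (limma adjusted p = 0.649), and Laptm5 passed when the mean of its probe sets was used.

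**Figure D4:**
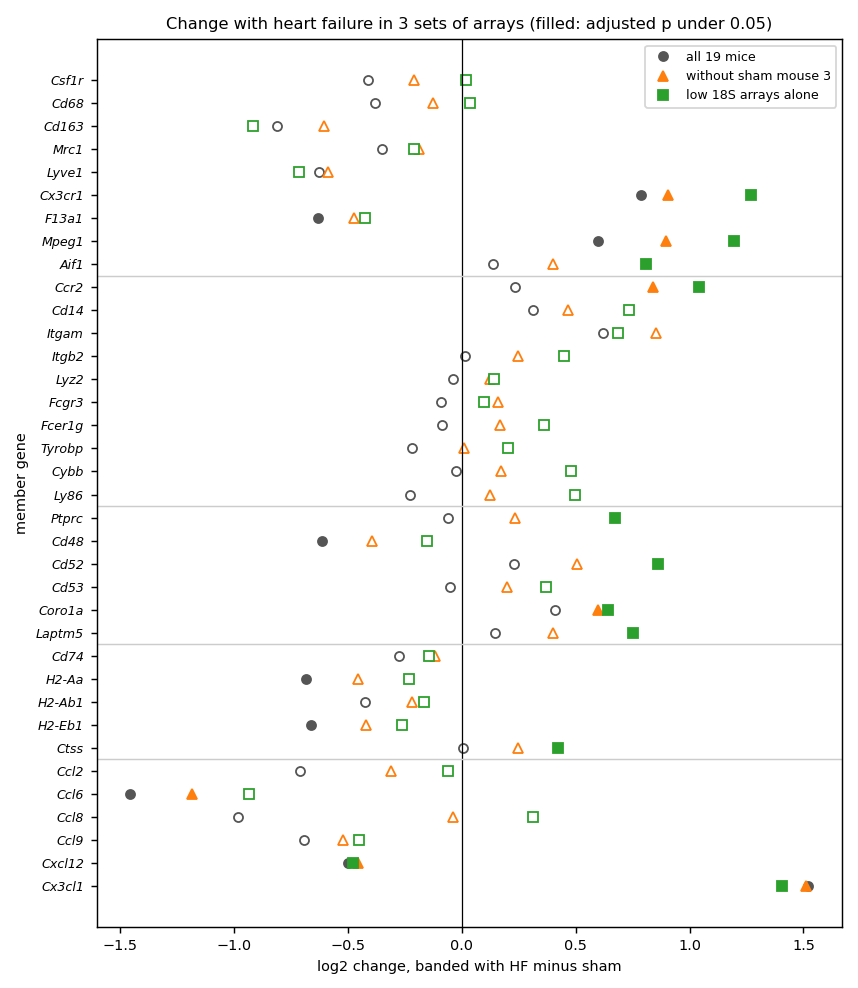
Log2 change between heart failure and sham for each of the 36 genes, over all 19 mice (circles), without sham mouse 3 (triangles) and over the 13 arrays of low 18S signal (squares); filled symbols have an adjusted p under 0.05. Most symbols move to the right from circle to square, while Cx3cl1 stays between 1.40 and 1.52 and Cxcl12 between -0.50 and -0.45.

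Among the low 18S arrays alone 11 of the 36 genes passed in heart failure against 2 sham mice, where 24.9% of all genes passed. Cx3cr1, Mpeg1, Aif1, Ccr2, Ptprc, Cd52, Coro1a, Laptm5, Ctss and Cx3cl1 were higher, and Cxcl12 was lower. Of these, Cx3cr1, Mpeg1, Cxcl12 and Cx3cl1 also passed over all 19 mice. The 2 sham mice of that set, 4 and 5, each had the lowest signal of 19 in 7 of the 36 genes. F13a1, Cd48, H2-Aa and H2-Eb1 did not pass among these arrays, nor with the 18S set as a block or the actin difference as a covariate over all 19 mice. With the actin covariate 7 of the 36 passed (19.4%, beside 25.2% of all genes), 2 higher and 5 lower. There Cd163, Lyve1 and Ccl9 were gained, all lower, and the rise of Mpeg1 was lost. With the 18S block 7 passed (19.4%, beside 33.6% of all genes), 5 higher and 2 lower.

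Genes of the same cells and pathways outside the 36 were taken from lists. Of 28 other macrophage genes 18 were tested, and in heart failure 4 rose and 2 fell, 33.3% of those tested beside 39.3% of all genes. Lgals3, galectin-3 of activated macrophages and fibroblasts, was 7.87, 6.91, 8.57, 6.6 and 6.59 in sham mice and ran from 6.87 to 9.05 (median 8.35) without and from 8.88 to 11.18 (median 9.40) with heart failure. All mice with heart failure were above all sham mice, with a change of 2.33 ± 0.44 (5.02-fold, limma adjusted p = 0.000419), and of 1.52 ± 0.40 against banded mice without heart failure (limma adjusted p = 0.0239).

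Gpnmb, a glycoprotein of lipid-laden macrophages, rose by 1.18 ± 0.23 in heart failure (limma adjusted p = 0.000508), from a sham level near the filter. Folr2, the folate receptor of resident macrophages, was 7.55, 6.72, 7.90, 6.30 and 7.05 in sham mice and ran from 6.02 to 6.48 without and from 4.45 to 6.76 with heart failure, with 6 of 7 of the latter below all sham mice. It fell by 1.70 on the log2 scale (SE 0.33, limma adjusted p = 0.000592), and by 1.5 without sham mouse 3. Cbr2, chosen after its values were seen as the other gene of this list that fell, changed by -1.11 ± 0.24 (limma adjusted p = 0.00145), and both Folr2 and Cbr2 did not pass among the low 18S arrays. Irf8, a transcription factor of the monocyte and macrophage lineage, was the 1 gene of the list that passed without heart failure (5.56% of those tested beside 17.4% of all genes), at 0.69 ± 0.12 (limma adjusted p = 0.000989); its highest sham value was 7.08 and its lowest value in that banded group 7.18. In heart failure Irf8 rose by 0.63 and Csf2ra, the alpha chain of the GM-CSF receptor, by 0.36, both named there after their values were seen.

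**Figure D5:**
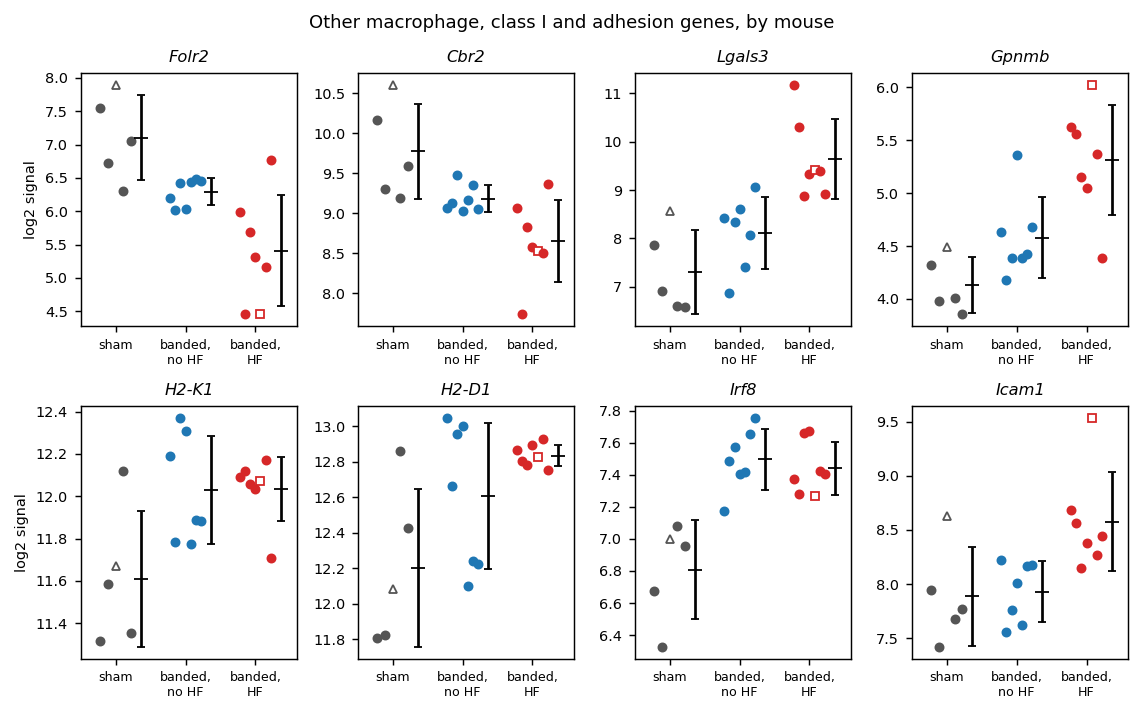
Log2 signal by mouse of 8 genes outside the 36 (macrophage genes Folr2, Cbr2, Lgals3, Gpnmb and Irf8, class I genes H2-K1 and H2-D1, and the adhesion gene Icam1); points are mice, bars show mean and SD, the open triangle is sham mouse 3 and the open square banded mouse 5 with heart failure. Lgals3 lies above all sham mice in heart failure, Folr2 below in 6 of 7, and H2-D1 splits within the sham group and within the banded group without heart failure.

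Of 25 other antigen presentation genes 20 were tested. In heart failure 6 rose and 1 fell, 35% of those tested beside 39.3% of all genes, and without it 5 rose, 25% beside 17.4%. Psmb10, an immunoproteasome subunit, rose by 0.48 ± 0.09 with (limma adjusted p = 0.000266) and 0.42 ± 0.09 without heart failure (limma adjusted p = 0.00278), and all banded mice were above all sham mice. The class I heavy chain genes H2-D1 and H2-K1 rose by 0.63 and 0.43 in heart failure (limma adjusted p = 0.0117 and 0.0185), and Tap1, the peptide transporter, by 0.57 without it (limma adjusted p = 0.0482). H2-D1 lay with the 18S signal: it was 11.81 to 12.09 in sham mice 1 to 3 and 12.86 and 12.43 in sham mice 4 and 5. Likewise it was 12.10 to 12.24 in banded mice 5 to 7 without heart failure and 12.66 to 13.05 in mice 1 to 4. With the 18S set as a block the changes of H2-D1 and H2-K1 in heart failure were 0.20 and 0.26, and neither passed.

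Of 35 other chemokines and receptors 14 were tested. In heart failure Cxcl16 and Cxcl10 rose and Ccl7 and Ccl27a fell, 28.6% of those tested beside 39.3% of all genes. Cxcl16, a second membrane-bound chemokine, rose by 0.64 ± 0.22 (limma adjusted p = 0.0258), and Cxcl10, an interferon-induced chemokine, by 0.49 ± 0.13 (limma adjusted p = 0.00672) at levels near the filter. Ccl7, another CCR2 ligand, was 7.62 in sham mouse 3 and 4.43 to 4.58 in the other sham mice; its change of -1.10 ± 0.41 (limma adjusted p = 0.0399) was -0.48 without that mouse. Ccl27a, named after its values were seen, changed by -0.42.

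Of 24 inflammatory cytokines and receptors 14 were tested, and 6 rose and 1 fell in heart failure (50%), 4 and 1 without it (35.7%). Of all genes 39.3% passed with and 17.4% without heart failure. Il15, a cytokine that sustains NK and memory T cells, fell by 1.52 on the log2 scale with heart failure (SE 0.17, limma adjusted p = 1.78e-06) and by 1.01 without it (limma adjusted p = 0.000569), and all 14 banded mice were below all sham mice. Tnfrsf12a, the TWEAK receptor, rose by 1.34 with and 1.14 without heart failure, and Tlr4, the lipopolysaccharide receptor, by 0.90 and 0.68. Of 11 genes of leukocyte adhesion to endothelium 8 were tested. In heart failure 5 rose and 1 fell (75%, beside 39.3% of all genes), while 25% passed without it, beside 17.4%. Cd34, Icam1 and Vcam1 rose by 0.70, 0.69 and 0.54, and Icam1 was also higher than in banded mice without heart failure (limma adjusted p = 0.0493). Beside these genes, 8 of 10 fibroblast markers and 2 of 10 endothelial markers rose in heart failure, where 20.4% of all genes rose. The part of these markers in the results was not tested.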

How the data were processed

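The authors deposited log2 values, and the submitters' processing notes name GCRMA, its version not being given in the sources used here. The method corrects for background by probe sequence, so dim probe sets sit near a common floor and their changes are compressed. The arrays have no counts, and their number limits the precision. Of 45101 probe sets, 34958 had 1 symbol in GEO's platform annotation, and 18595 of these were above log2 4 on at least 5 arrays; the brightest stood for its gene. The 36 genes had 65 probe sets, 54 past the filter, and 11 had more than 1. One limma fit (R 4.3.3 with limma 3.58.1; lmFit, then eBayes; group as the term) covered all 19 arrays, with Benjamini-Hochberg adjustment over 10733 genes and a threshold of 0.05; it was tested on simulated data. Promoters came from RefSeq (GRCm38.p6). Python 3.11.15, pandas 2.3.3 and matplotlib 3.10.9 were used. The genes and lists were chosen with earlier results of these data known. All 36 genes are described; from each other list at most the 3 genes with the largest changes past the threshold are named in a comparison by rule, and any further gene was named after its values were seen. Alternatives covered the filter, probe sets, normalization, 18S set, animal series, actin difference, prior, spread estimate and each mouse left out.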

Additional observations from a re-analysis of the deposited data

Results flagged for a closer look

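Over the 36 genes and 3 groups, 108 groups of mice were examined for a mouse whose distance from its nearest neighbour was large for the range of its group (Dixon's criterion), and 6 met it; chance gives about 1 in 20. Banded mouse 5 with heart failure gave 4 of them. It was the highest in its group in Itgam at 7.12 (next 5.03), Cybb at 9.31 (next 7.68) and Fcer1g at 9.61 (next 8.78), and the lowest in Mrc1 at 8.38 (next 9.19). Sham mouse 3 was the highest in Ccl8 at 10.23 (next 6.03), and sham mouse 4 in Cx3cl1 at 7.15 (next 6.74).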

How the results depend on the processing

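Between heart failure and sham 9 of the 36 genes passed (25%, beside 39.3% of all genes). With no filter 3 did so (Ccl6, Cxcl12, Cx3cl1), 8.33% beside 21.4% of all genes. With only the arrays of both groups 3 passed, 8.33% beside 35.8%. Leaving out 1 mouse at a time gave 5 to 10 (13.9% to 27.8%), beside 33.0% to 40.9% of all genes. Against sham, the count in banded mice without heart failure was 1 (2.78%, beside 17.4% of all genes). It became 2 (5.56%) with the mean of the probe sets, quantile normalization, the 18S block or the actin covariate. It was also 2 with both sham mouse 3 and banded mouse 5 with heart failure left out (an alternative added after the data were seen). Of all genes 11.2% to 21.9% passed in these settings. With 1 mouse left out the count was 1 to 4 (2.78% to 11.1%), beside 11.0% to 20.5% of all genes. Between the banded groups the count of 1 became 0 with no filter, the mean of the probe sets, the 18S block, the low 18S arrays or only the arrays of both groups. Of all genes 1.39% to 10.3% passed in these settings. The count became 2 (5.56%) with quantile normalization, equal medians, the actin covariate or an intensity trend, beside 9.94% to 12.0% of all genes. With 1 mouse left out it was 0 to 1, beside 4.73% to 10.7% of all genes. The direction turned in 1 called case, Ptprc among low 18S arrays, at 0.67 in heart failure. In heart failure Cx3cl1 passed in all 24 alternatives, at 1.15 to 1.83. Ccl6 and Cxcl12 each passed in 23 of 24, Cx3cr1 in 16, H2-Aa in 14, F13a1 in 13, H2-Eb1 and Cd48 in 12 and Mpeg1 in 10. Where calls were lost the cause was not tested. No paired analysis was possible because the labels give no replicate number shared between groups.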
